A study of Mus musculus with 1920 samples.

Results

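Rps4l and Rps4x are 2 mouse genes for versions of the small-subunit ribosomal protein S4, and they were taken by symbol from a table of 55471 gene identifiers. They were chosen by the measured Rps4l counts, which were common in cells of young mice and rare in cells of aged mice, so their levels by age are given as a description, with no test. The series sequenced single Lgr5high intestinal stem cells (ISCs) from 3 young and 4 aged mice by a SMART-seq2 approach, which reads along the whole transcript and adds no molecular identifiers. All 7 mice carried the Lgr5 allele that the labels write B6.129P2-Lgr5tm1(cre/ERT2)Cle/J, a knock-in that marks Lgr5-expressing cells with GFP and an inducible Cre recombinase. The allele is known for patchy expression between crypts, and the labels give neither group a treatment. Cells with high GFP were sorted from small-intestinal crypts, and the ages and sex of the sequenced mice are not stated there. After 84 cells with fewer than 1000 detected genes were set aside, 906 young and 930 aged cells remained. Xist, the RNA that silences the inactive X chromosome, stood at 1280 to 1888 counts per 1000000 reads (CPM) in each of the 7 mice, and the Y-linked Ddx3y, Eif2s3y, Kdm5d and Uty at or below 0.02 CPM.

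Each small ribosomal subunit holds 1 copy of S4, a core protein assembled in the nucleolus. In mouse the main gene is Rps4x, which sits on the X chromosome and is split by introns, while Rps4l is an intronless copy made by reverse transcription of an S4 mRNA and placed on an autosome. Cycling ISCs renew the gut lining and spend much of their transcription and translation on ribosomal proteins, whose mRNAs are made in balanced amounts.

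In GRCm38, Rps4l (ENSMUSG00000063171) lies at chr6:148354656-148355598 on the plus strand. GENCODE M21 lists it as a transcribed processed pseudogene with a single exon. It sits within Tmtc1, a transmembrane protein gene read from the opposite strand, in an intron whose nearest annotated Tmtc1 exon is 18324 bases away. Its transcript of 943 bases nevertheless holds an uninterrupted reading frame of 262 codons that starts at base 55. Rps4x (ENSMUSG00000031320) lies at chrX:102184941-102189394 on the minus strand, and its transcript of 975 bases has a reading frame of 263 codons. Of 262 codon pairs in the alignment of both frames, 122 were identical, 123 differed in a base but not in the amino acid, and 17 differed in the amino acid, so that the predicted proteins shared 93.5% of residues and the coding bases 79.9%. Of the 158 differing bases, 128 were in the third position of a codon.

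The stretches below show how far reads of the 2 genes can be told apart. They were read from the GENCODE M21 transcripts, 5′ to 3′ and in frame, and capitals mark the bases that differ between the genes. The first 30 codons hold 15 differences. They lie at chr6:148354710-148354799 for Rps4l and between chrX:102187994-102189300, spliced from exons 1 to 3, for Rps4x.
Rps4l codons 1 to 30: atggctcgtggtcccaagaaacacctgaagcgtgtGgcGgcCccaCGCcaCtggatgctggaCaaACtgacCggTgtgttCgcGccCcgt
Rps4x codons 1 to 30: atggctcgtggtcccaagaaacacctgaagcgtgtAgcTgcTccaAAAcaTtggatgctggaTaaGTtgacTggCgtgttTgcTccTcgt
The 30 codons with the most differences hold 27 and lie at chr6:148355193-148355282 for Rps4l and between chrX:102185620-102186444, in exons 5 and 6, for Rps4x.
Rps4l codons 162 to 191: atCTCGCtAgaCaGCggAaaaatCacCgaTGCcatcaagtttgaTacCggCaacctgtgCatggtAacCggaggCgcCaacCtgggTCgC
Rps4x codons 162 to 191: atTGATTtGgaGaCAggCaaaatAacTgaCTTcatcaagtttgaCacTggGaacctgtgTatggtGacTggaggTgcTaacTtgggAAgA
The 30 codons with the fewest hold 9 and lie at chr6:148355394-148355483 for Rps4l and between chrX:102185048-102185508, in exons 6 and 7, for Rps4x.
Rps4l codons 229 to 258: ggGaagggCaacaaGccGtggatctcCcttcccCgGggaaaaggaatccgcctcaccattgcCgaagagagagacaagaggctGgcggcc
Rps4x codons 229 to 258: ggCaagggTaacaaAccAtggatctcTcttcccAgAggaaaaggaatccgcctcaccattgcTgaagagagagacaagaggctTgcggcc

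The longest run of bases shared by both transcripts was 38 bases, at the start of the reading frame, so a window of 50 bases never matched both exactly. Other copies of S4 in the annotation bear more on Rps4x than on Rps4l. Of 15 further S4 copies aligned over at least 500 bases, 14 were nearer to Rps4x and 1, Rps4l-ps, was nearer to Rps4l. Of the windows of 50 bases along Rps4x, 72.2% occurred in another annotated gene, against 14.9% of those along Rps4l. Rps4l-ps, at chr7:114926959-114927726 and 93.3% identical to Rps4l, had 0 CPM in all 7 mice. The 15 copies together held reads equal to 4.54% to 5.26% of the Rps4x reads of the same mouse, most of them at Gm9616 (13.8 to 26.7 CPM), while Rps4x-ps, at chr5:3875362-3876154, had 0.13 to 0.48 CPM. How reads with several equally good matches were counted is not stated, so the Rps4x counts are uncertain to that extent.

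Rps4l was read in every young mouse at close to the same level and was nearly absent from every aged mouse. In the counts summed over the kept cells of a mouse it stood at 27.9, 34.8 and 27.9 CPM in young mice 1, 2 and 3. In aged mice 1, 2, 3 and 4 it stood at 1.59, 1.34, 0.846 and 0.251 CPM. The group means were 30.2 ± 4.00 CPM (SD, n = 3) and 1.01 ± 0.590 CPM (SD, n = 4), and the lowest young mouse was far above the highest aged mouse. Over all 20957 genes fitted, 4.09% had aged mice that lay below the young without overlap, a share that is background here since the gene was chosen for this pattern.

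Rps4x, the main S4 gene, overlapped fully between the ages. It stood at 361, 615 and 493 CPM in young mice 1, 2 and 3, and at 561, 741, 350 and 529 CPM in aged mice 1, 2, 3 and 4. The means were 490 ± 127 CPM (SD, n = 3) in young and 545 ± 160 CPM (SD, n = 4) in aged mice, with a log2 fold change of 0.21 ± 0.25 (SE, edgeR fit) for aged over young. Both the lowest and the highest of the 7 values were from aged mice. The spread of Rps4x within 1 age was wider than the distance between the means.

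**Figure D1:**
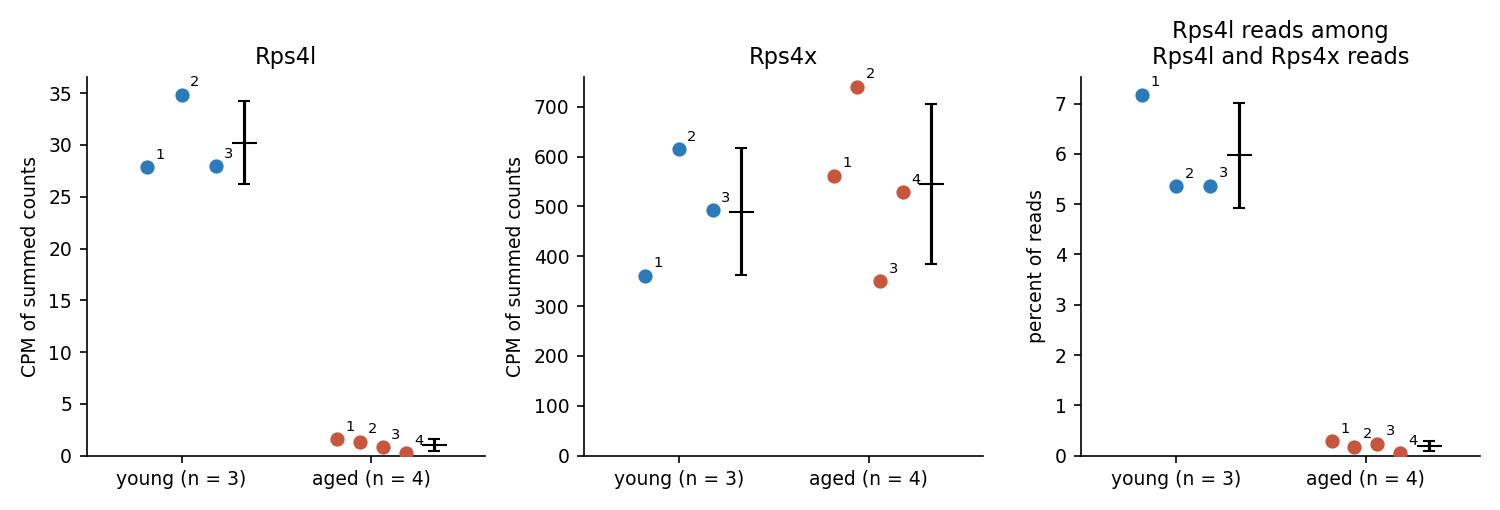
Level of Rps4l (left) and Rps4x (middle) in CPM of the counts summed per mouse, and the percentage of Rps4l among the reads of both genes (right). Points are mice, numbered as in the text, and black bars are mean ± SD. The young mice lie between 27.9 and 34.8 CPM for Rps4l and the aged at or below 1.59 CPM, while the ages overlap for Rps4x.

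Set against each other within a mouse, which needs no scaling of the library, the 2 genes gave the same picture. Reads of Rps4l made up 7.17%, 5.36% and 5.36% of the reads of both genes in young mice 1, 2 and 3. The share was 0.282%, 0.180%, 0.241% and 0.0475% in aged mice 1, 2, 3 and 4. Per kilobase of transcript, Rps4x stood 12.5 to 17.1 times above Rps4l in young mice and 342 to 2037 times above it in aged mice. On the log2 scale the ratio of Rps4l to Rps4x was -3.99 ± 0.26 (SD, n = 3) in young and -9.33 ± 1.17 (SD, n = 4) in aged mice. Rps4l was therefore a minor part of S4 reads at both ages. On the log2 scale its ratio to Rps4x differed from mouse to mouse more among the aged, whose counts were few. As a percentage of the reads of both genes the SD was larger in the young, at 1.05 against 0.10 in the aged.

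Most young cells had reads of Rps4l, and few aged cells did. At least 1 read was found in 90 of 160 cells of young mouse 1 (56.2%, exact 95% binomial interval 48.2% to 64.1%), 248 of 370 of mouse 2 (67.0%, 62.0% to 71.8%) and 249 of 376 of mouse 3 (66.2%, 61.2% to 71.0%). The aged mice had 5 of 189 cells (2.65%, 0.864% to 6.07%), 6 of 186 (3.23%, 1.19% to 6.89%), 15 of 189 (7.94%, 4.51% to 12.8%) and 9 of 366 (2.46%, 1.13% to 4.62%), in order of mouse number. The intervals cover counting error only. No aged mouse came near a young one. Reads of Rps4x were found in 98.1% to 99.5% of cells in young and 98.9% to 100% in aged mice, so almost every cell without Rps4l still gave reads of the main S4 gene.

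The shares differed in the same way at equal depth. Median reads per kept cell were 211790 to 344568 in young and 246615 to 327914 in aged mice. With each cell thinned to 100000 reads and shallower cells left out, Rps4l was found in 47.3%, 62.2% and 59.9% of cells in young mice 1, 2 and 3. In the aged mice it was found in 3.01%, 3.35%, 2.84% and 1.76%, so that aged mouse 3 no longer stood above the others. Within young mouse 2 the share was 55.9% in the 25% of cells with the fewest reads and 77.4% in the 25% with the most. In young mouse 3 it was 73.4% in the shallowest cells and 53.2% in the deepest, and in young mouse 1 it was 50.0% in the shallowest and 42.5% in the deepest.

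**Figure D2:**
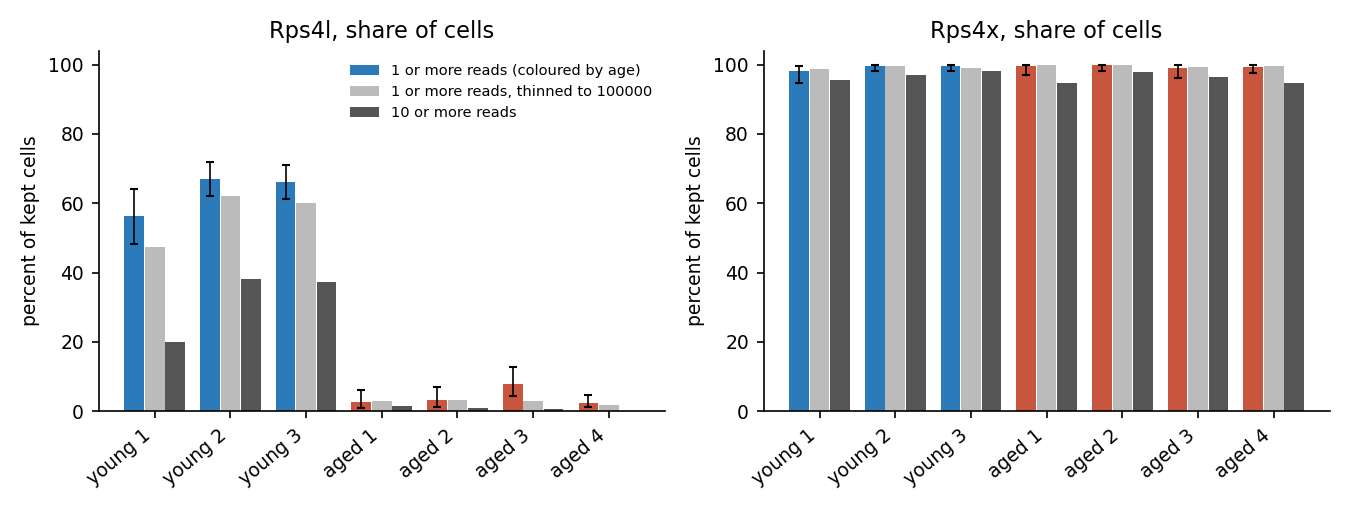
Percentage of kept cells with reads of Rps4l (left) and Rps4x (right) by mouse. The first bar counts cells with at least 1 read and is blue for young and red for aged, with the exact 95% binomial interval, the light bar counts the same after thinning to 100000 reads per cell, and the dark bar counts cells with at least 10 reads. With at least 1 read, Rps4l lies between 56.2% and 67.0% in young mice and between 2.46% and 7.94% in aged mice, and Rps4x at or above 98.1% in all.

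Among cells that had any Rps4l, the amount varied between aged mice. The median in positive cells was 7, 12 and 12 reads (33.3, 37.3 and 35.0 CPM) in young mice 1, 2 and 3. It was 13 reads (34.0 CPM) in aged mouse 1, 6.5 (15.3 CPM) in aged mouse 2, and 2 reads in both aged mice 3 (7.00 CPM) and 4 (5.74 CPM), so that aged mouse 1 was level with the young and the others were lower. Pooled over mice, the 587 young positive cells held a median of 11 reads (range 1 to 239) and 35.7 CPM, and the 35 aged positive cells, 15 and 9 of them from aged mice 3 and 4, a median of 2 reads (range 1 to 43) and 9.66 CPM. Of the aged positive cells, 51.4% had only 1 or 2 reads, against 12.3% of the young. The few reads of the aged mice were held by a handful of cells. The 5 positive cells of aged mouse 1 had 5, 7, 13, 25 and 42 reads, and the 6 of aged mouse 2 had 1, 2, 5, 8, 22 and 43. Aged mouse 3 had 1 cell with 24 reads and 14 with at most 8, and aged mouse 4 none above 9. At least 10 reads were found in 32, 141 and 140 cells of young mice 1, 2 and 3, and in 3, 2, 1 and 0 cells of aged mice 1, 2, 3 and 4. In level, 7 of the 35 aged positive cells reached the young median of 35.7 CPM, 2 of them shallow cells of aged mouse 3 with 1 or 2 reads. In young mouse 1 a few cells weighed heavily as well, since its 5 highest cells held 45.5% of its Rps4l reads, against 10.4% and 8.85% in young mice 2 and 3.

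The difference was as large between cells that share a code in their titles. The labels do not say what the code stands for, such as a plate, a pool of libraries or a sequencing lane. Each code covers 384 cells, and 3 codes held both ages. Rps4l stood at 36.1 CPM in the cells of young mouse 2 and 1.59 in aged mouse 1 under the first of these codes. It stood at 33.8 CPM (young mouse 2) and 1.34 (aged mouse 2) in the second, and at 27.9 CPM (young mouse 1) and 0.846 (aged mouse 3) in the third. The log2 ratios of aged over young within a code were -4.51, -4.66 and -5.04. Those for Rps4x were 0.16, 0.06 and -0.04. Levels of Rps4x moved with the code: young mouse 2 had 502 CPM under the code shared with aged mouse 1 (561 CPM) and 710 CPM under that shared with aged mouse 2 (741 CPM), and the third code had 361 CPM (young mouse 1) and 350 CPM (aged mouse 3). With the code as a block in edgeR, the log2 fold change of Rps4x was 0.12 ± 0.09 (SE). That fit took counts per mouse and code, so young mouse 2 entered under each of its codes as if it were separate mice. Its age term rests on the 3 codes with both ages, that is on young mice 1 and 2 and aged mice 1, 2 and 3. The SE is therefore not a spread over independent mice. Aged mouse 4, whose code held no young cells, had the lowest Rps4l of all mice, and young mouse 3, whose code held no aged cells, had 27.9 CPM.

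Within single cells the measured levels of the 2 genes were weakly related, with many cells at 0 for Rps4l. Over the cells of each young mouse, Pearson's r between their log2(CPM + 1) values was 0.19, 0.11 and 0.20, and Spearman's rho 0.05, 0.08 and 0.09, as a description over 160, 370 and 376 cells that share library and depth. In aged mice, where Rps4l was mostly 0, r was between -0.04 and 0.06. Cells with Rps4l in young mice had somewhat more Rps4x, at 400, 636 and 523 CPM against 322, 565 and 441 CPM in cells without it. They also had more detected genes, with medians of 9220, 9937 and 9302 against 7778, 9067 and 8443. Only 1 young cell and no aged cell had reads of Rps4l without any of Rps4x.

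**Figure D3:**
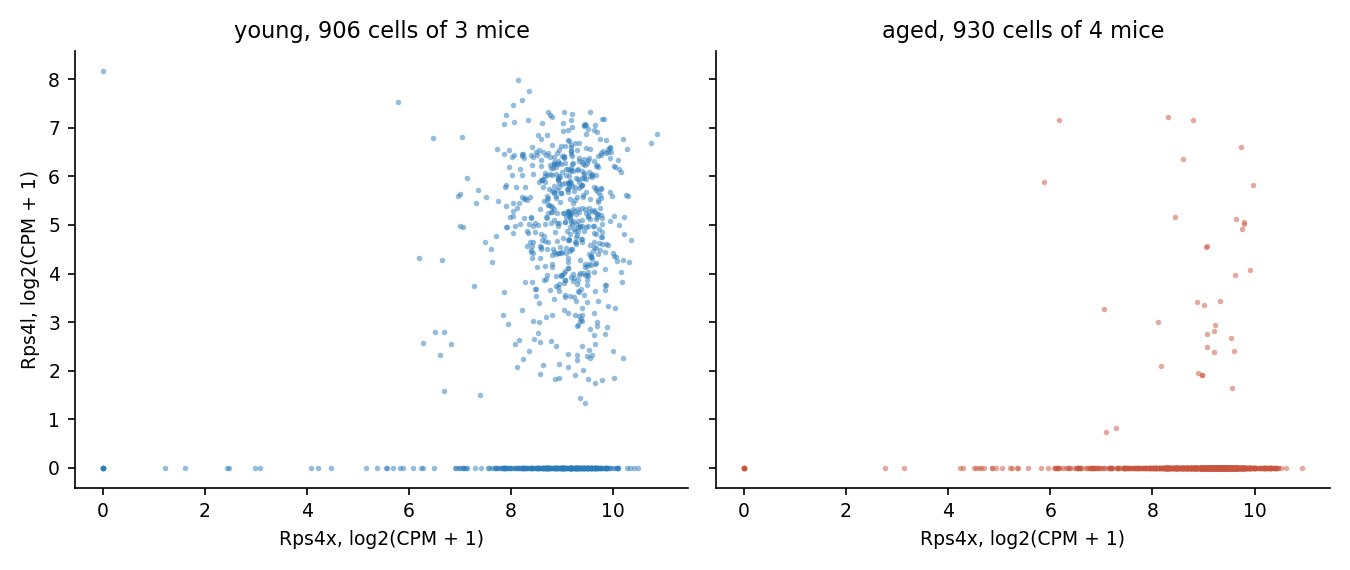
Rps4x (x axis) against Rps4l (y axis) in single cells as log2(CPM + 1), with 906 cells of 3 young mice on the left and 930 cells of 4 aged mice on the right. Cells on the line at 0 have no read of Rps4l: most aged cells lie there at the same Rps4x levels as young cells.

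Markers of ISCs were abundant in the sorted cells of all mice. Lgr5, the receptor that marks ISCs, stood at 172 to 454 CPM and Olfm4, a secreted ISC marker, at 11026 to 19691 CPM in the 7 mice, both with overlap between ages. When each cell was assigned to the marker list with the highest mean, ISC markers led in 87.5% to 93.5% of cells of young mice and 73.2% to 90.5% of aged mice. All 7 ISC, enterocyte, goblet, Paneth, enteroendocrine, tuft and immune lists had reads of every listed gene in the summed counts, and so had the stromal list at 0.224 to 7.21 CPM in total. The summed Paneth list stood at 8361 to 27996 CPM in young and 13946 to 30801 CPM in aged mice. The age pattern of Rps4l was as large among cells led by ISC markers alone, with shares of 55.7% to 67.9% in young and 2.92% to 6.80% in aged mice. In young mice Rps4l was read in several cell classes, at a lower level in Paneth-led cells. It stood at 9.34, 16.8 and 15.7 CPM in the Paneth-led cells of young mice 1, 2 and 3, against 27.8, 35.0 and 28.3 CPM in ISC-led cells. Goblet-led cells of young mice 1, 2 and 3 had 75.7, 103 and 21.4 CPM over 3, 3 and 11 cells. Enterocyte-led cells had 19.7, 18.9 and 27.0 CPM over 5, 1 and 7 cells. Rps4l was read in 45.5% to 71.4% of the young cells led by Paneth markers and in 33.3% to 100% of those led by goblet markers, although these classes held 38 and 17 cells in all.

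Differences between classes of cells within a mouse played no part in choosing the genes and were tested for Rps4x. Rps4x fell in cells led by another marker list relative to cells led by ISC markers. The log2 ratios were -0.74, -1.03 and -0.58 in young mice 1, 2 and 3, and -1.11, -1.03, -0.48 and -1.07 in aged mice 1, 2, 3 and 4. The mean was -0.86 ± 0.26 (SD, n = 7), lower in 7 of 7 mice, with p = 0.0156 in an exact two-sided sign-flip permutation test over mice and 0.0234 after Benjamini-Hochberg adjustment over 3 such tests. This p is the smallest that 7 mice allow. Paneth-led cells had 129 to 359 CPM of Rps4x, below the 370 to 824 CPM of ISC-led cells. Not every class was lower. Goblet-led cells of young mice 1, 2 and 3 had 376, 812 and 539 CPM against 378, 633 and 502 CPM in ISC-led cells, over 3, 3 and 11 goblet-led cells. In aged mice 1, 2, 3 and 4 they were lower, at 393, 593, 280 and 405 CPM against 577, 824, 370 and 583 CPM. Enterocyte-led cells of aged mouse 3 had 398 CPM, above its ISC-led cells. Between all cells led by other lists and ISC-led cells, the sum of the other 78 ribosomal protein genes differed by -0.79 ± 0.21 (SD, n = 7). It was lower in all 7 mice. Median reads per cell were 180149 to 259333 in the cells led by other lists and 210110 to 378674 in ISC-led cells, and the part of depth in the result was not tested.

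Among ISC-led cells, Rps4x rose with the score of S phase genes. Between the 25% of cells with the highest and the 25% with the lowest score in each mouse, the log2 ratio was 0.23 ± 0.22 (SD, n = 7), higher in 7 of 7 mice, with p = 0.0156 in the exact sign-flip permutation test and an adjusted p of 0.0234. The values were 0.32, 0.18 and 0.36 in young mice 1, 2 and 3. They were 0.048, 0.021, 0.61 and 0.067 in aged mice 1, 2, 3 and 4, so that aged mouse 3 stood alone among the aged. With the score of G2 and mitosis genes the log2 ratio was smaller, 0.094 ± 0.12 (SD, n = 7), higher in 6 of 7 mice, with p = 0.0312 in the exact sign-flip permutation test and an adjusted p of 0.0312. This call was lost when any 1 of 6 mice was left out (adjusted p = 0.0625 in the same exact test), and without young mouse 3 the mean was 0.054. The other ribosomal protein genes together differed by 0.083 ± 0.12 and -0.066 ± 0.094 (SD, n = 7) in these 2 comparisons. Cells of the highest score classes had more detected genes, with medians of 9368 to 10351 against 6786 to 9715 for S phase. Median reads of the 2 S phase classes were close in most mice. They were higher in the highest class of aged mice 1 (292200 against 220716) and 2 (370844 against 311259). After thinning to 100000 reads per cell the S phase value was 0.17, higher in 6 of 7 mice (adjusted p = 0.0469 in the exact sign-flip permutation test). The part of detected genes in the result was not tested. None of the 3 differences in Rps4x was itself shown to differ between ages, with p = 0.571, 0.543 and 0.571 in an exact permutation test over the 35 divisions of the mice.

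For Rps4l only the 3 young mice had enough reads, and 3 mice cannot give a two-sided sign-flip p below 0.25, so no test was made. Rps4l was higher in the cells with the highest G2 and mitosis score in each of them. It stood at 38.5 against 15.9 CPM in young mouse 1, 46.0 against 27.3 CPM in mouse 2 and 32.2 against 21.3 CPM in mouse 3. The log2 ratios were thus 1.27, 0.75 and 0.59, all 3 above every one of the 7 values of Rps4x in the same comparison. Each class held 35, 86 and 87 cells in young mice 1, 2 and 3. In young mouse 1, whose 5 highest cells held 45.5% of its Rps4l reads, a few cells may weigh heavily on the ratio. The share of cells with a read moved likewise, at 65.7%, 75.6% and 77.0% in the highest class against 40.0%, 54.7% and 46.0% in the lowest. With the S phase score the log2 ratios were -0.04, -0.03 and 0.53, but the share of cells with a read rose there too. It was 68.6%, 77.9% and 73.6% in the highest S phase class against 37.1%, 55.8% and 46.0% in the lowest. The highest G2 and mitosis class had more detected genes, with medians of 9383, 10014.5 and 9772 against 7295, 8535.5 and 8250. The part of this in the result was not tested. In cells led by other marker lists against ISC-led cells the log2 ratios of Rps4l were 0.04, -0.13 and -0.42.

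**Figure D4:**
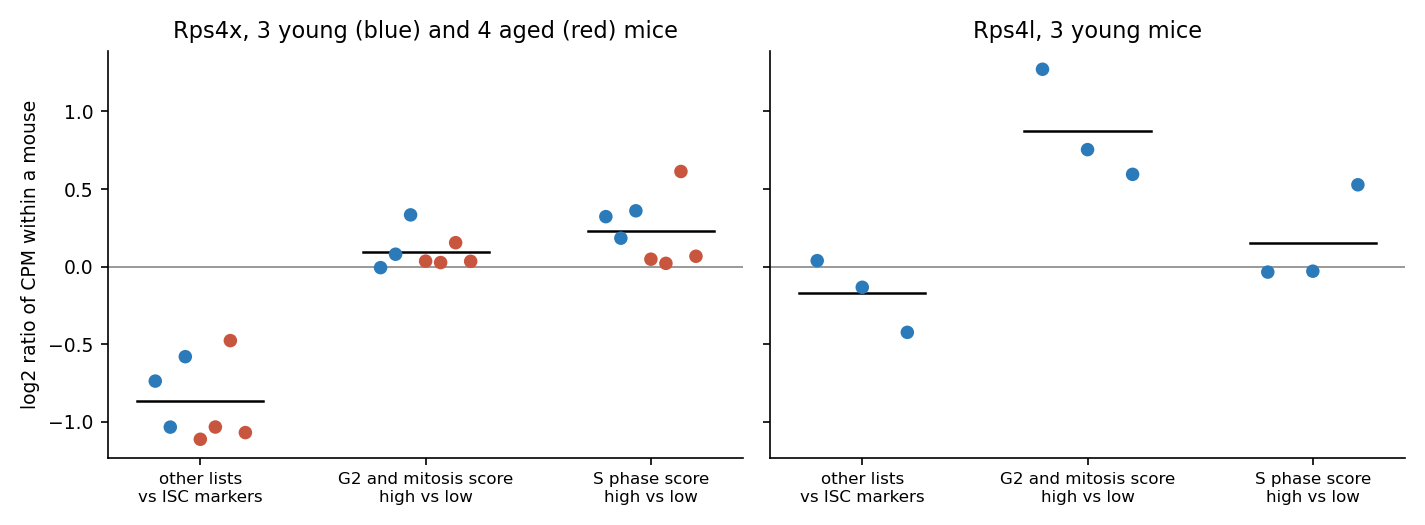
Log2 ratio of CPM between classes of cells within a mouse for Rps4x (left, 3 young mice in blue and 4 aged in red) and Rps4l (right, 3 young mice). Points are mice and black lines the means: Rps4x is lower outside ISC-led cells in all 7 mice, and Rps4l is 0.59 to 1.27 higher with a high G2 and mitosis score.

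The levels of the ribosomal protein genes overlapped between ages, and none passed the test. Of the 78 cytosolic ribosomal protein genes other than Rps4x, 0 passed an adjusted p of 0.05 in edgeR's quasi-likelihood test, 0 had an unadjusted p under 0.05 and 0 were called by DESeq2. Of all 20957 genes tested, 0% passed in edgeR, 5.24% had an unadjusted p under 0.05 and 0.845% were called by DESeq2. The median log2 fold change of the 78 genes was 0.12, beside 0.01 over all genes, and 76 of them were above 0. That direction rested on single mice, since of all 79 with Rps4x only 39 were above 0 without young mouse 1 and 43 without aged mouse 2. None of the 78 had mice that did not overlap between ages, against 5.92% of all genes. The largest log2 fold changes were those of Rpl29 (0.30 ± 0.20, SE), Rplp1 (0.26 ± 0.17), a protein of the acidic stalk, and Rps25 (0.23 ± 0.40). At the low end were Rpl23 (-0.14 ± 0.17) and Rpl5 (-0.06 ± 0.17), which carries the 5S RNA into the large subunit. Ribosomal protein genes together took 2.63% to 3.60% of reads in young and 2.76% to 3.81% in aged mice, and Rps4x took 1.37% to 1.71% and 1.26% to 1.94% of these.

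The paralogues of ribosomal protein genes, the group to which Rps4l belongs, were compared in the same fit. Of the 9 in the list, 6 passed the filter on low counts, Rps4l among them. Of the other 5, none passed in edgeR (0 also at an unadjusted p under 0.05, and 0 in DESeq2), and their log2 fold changes ran from 0.05 to 0.22. Over all 20957 genes the shares were 0%, 5.24% and 0.845%, so 0 of 5 is near them. Rps27l, a p53-responsive relative of Rps27, stood at 113 to 137 CPM in young and 118 to 154 CPM in aged mice, with a log2 fold change of 0.22 ± 0.16 (SE). Rpl22l1, the paralogue of Rpl22, stood at 59.2, 95.5 and 81.7 CPM in young mice and 67.4, 123, 61.6 and 60.4 CPM in aged mice. Rpl36al (16.5 to 29.0 CPM over the 7 mice), Rpl7l1 (88.3 to 126 CPM) and Rps27rt (8.80 to 18.3 CPM) overlapped between ages. Rpl3l, Rpl10l and Rpl39l, known from muscle and testis, were at or below 0.69 CPM in every mouse.

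**Figure D5:**
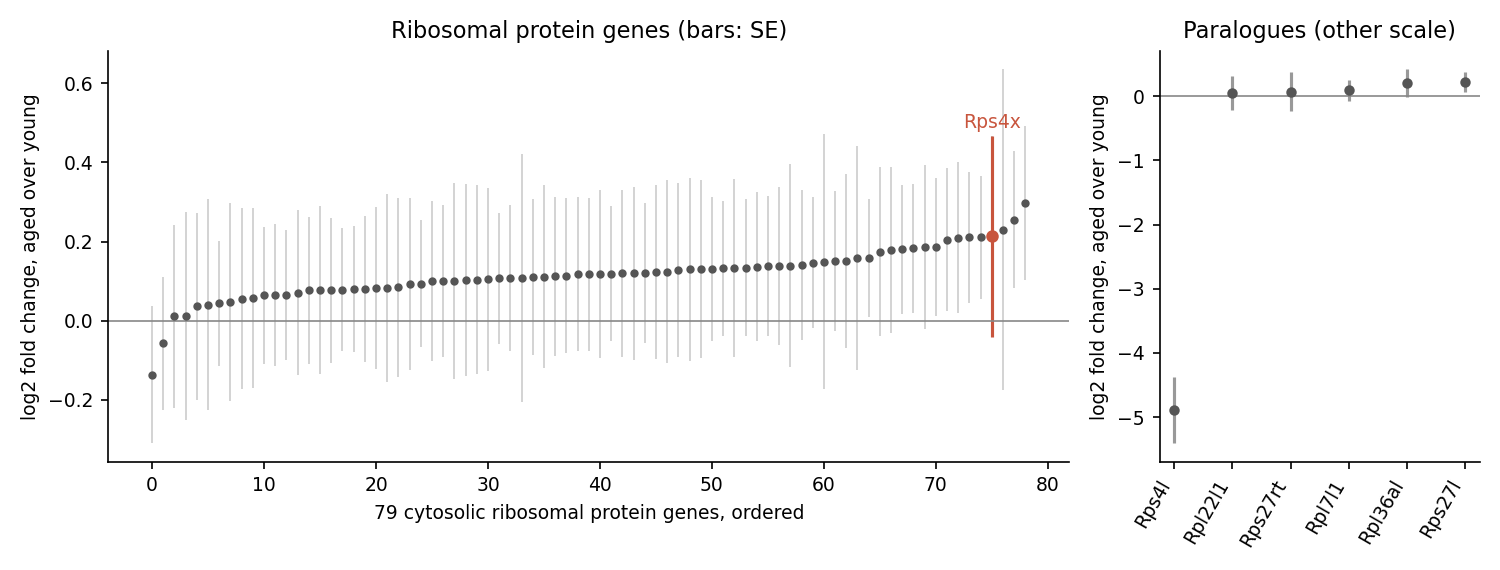
Log2 fold change of aged over young with its SE from edgeR for the 79 cytosolic ribosomal protein genes in order (left, Rps4x in red) and for the 6 ribosomal protein paralogues that passed the filter (right, on a wider scale). The 79 genes lie between -0.14 and 0.30, and Rps4l at -4.89 stands apart from the other paralogues.

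Genes around Rps4l on chromosome 6 were not lower in aged mice to a like degree. Tmtc1, in whose intron Rps4l lies, had 0.222, 1.04 and 0.867 CPM in young mice and 1.12, 0.182, 0.602 and 0.685 CPM in aged mice, far below Rps4l in the young. The antisense RNA gene Gm44020, whose start is 4139 bases away and which was named after its values were seen, had at most 0.04 CPM. Of the 8 nearest protein-coding genes that passed the filter, Tmtc1, Ergic2, Far2, Ipo8, Caprin2, Sinhcaf, Dennd5b and Etfbkmt, 0 passed in edgeR, 0 had an unadjusted p under 0.05 and 0 were called by DESeq2. Over all 20957 genes these shares were 0%, 5.24% and 0.845%, so 0 of 8 is near them. The log2 fold changes of the 8 ran from -0.29 to 0.02, with 1 above 0. Their median was -0.09, beside 0.01 over all genes. Those of Ergic2 (-0.28 ± 0.17, SE), a protein of transport between the endoplasmic reticulum and Golgi, and Etfbkmt (-0.29 ± 0.24), a mitochondrial methyltransferase, were the lowest. Far2, which makes fatty alcohols, stood at 233 to 291 CPM in young and 194 to 280 CPM in aged mice. Whether counting used strand is not stated. No annotated Tmtc1 exon overlaps Rps4l, but Rps4l lies in its intron, and a part of unspliced Tmtc1 RNA in the Rps4l counts was not tested.

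The genes most like each of the 2 were ranked by Pearson's r, as a description. Over the 7 mice, among 9563 genes with a mean of at least 10 CPM, Rps4l was followed most closely by Ptch1, the Hedgehog receptor (r = 0.98), Fnip1 (0.97), Nol4l (0.96), Tmem87a (0.96) and Btaf1 (0.96). Their ranges were narrow beside that of Rps4l, with Ptch1 at 49.8 to 52.5 CPM in young and 36.0 to 40.9 CPM in aged mice. Rps4l was chosen for its step between the ages, so a gene with a clean step in the same direction gets a high r here. This list therefore gives no sign of a link between these genes and Rps4l beyond age. Rps4x was followed most closely by the pseudogene Rpl19-ps11 (r = 1.00), the S4 copy Gm9616 (1.00), Tor1aip2 (0.99), Smim15 (0.99) and Afg1l (0.98). Gm9616 is 98.1% identical to Rps4x, and the part of reads that match both in its r was not tested. Over cells within a mouse, Rps4x was closest to other parts of the translation machinery: Rps3 (mean r = 0.74 over 7 mice), Rpl14 (0.73), the elongation factor subunit Eef1g (0.72), Rpl10 (0.70) and Rpl11 (0.70). The median r of Rps4x with the other ribosomal protein genes was 0.61, beside 0.18 for all 12560 genes ranked. Over cells of the 3 young mice no gene reached a like r with Rps4l. Only 56.2% to 67.0% of these cells had a read of Rps4l, against 98.1% to 99.5% for Rps4x. Cells at 0 limit how high r can be, so the r of Rps4l and Rps4x do not compare on equal terms. The highest mean r of Rps4l were with the proteasome subunit gene Psmc6 (0.25), the respiratory chain genes Cox7b (0.25) and Sdhd (0.25), Gm37401 (0.25) and Eny2 (0.25). Its median r with ribosomal protein genes was 0.17, beside 0.09 for all genes. Rps4x itself ranked 948 of 12560 genes by r with Rps4l (0.17).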

How the data were processed

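The authors aligned reads to GRCm38 with HISAT2 and counted them with HTSeq, per the labels, and deposited raw counts per gene and cell, with no normalization. HTSeq's strand setting and treatment of multiple matches are not given in the sources used. Columns of counts were matched to cells by the cell titles, and cells were assigned to mice by the sample group in the labels. Cells with under 1000 detected genes (84) were left out, and no 2 cells had identical counts. Counts were summed per mouse (49447464 to 134408884 reads) and the mouse was the replicate. The fit with the code as a block was the exception, with counts summed per mouse and code.

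The fit over all genes used the quasi-likelihood test of edgeR 4.0.16 under R 4.3.3 with TMM scaling and filterByExpr, and adjusted p-values (Benjamini-Hochberg) were called under 0.05. DESeq2 1.42.0 was an alternative, and both were tried on simulated counts. Of 100 genes with a true log2 fold change of 1 in size, edgeR called 40% and DESeq2 64%. At a size of 3 each called 99%. A gene that was not called may therefore still differ by a log2 fold change of 1. Symbols, coordinates and sequences came from GENCODE M21, with 55144 identifiers matched. Copies of S4 were found with blastn 2.17.0. Cell classes used mean log2(CPM + 1) of marker lists. Alternatives were other cell filters, thinning to 100000 reads, blocks for the replicate number and the code in the cell titles, and leaving out each mouse. Named genes follow a rule: the 2 members, the paralogue list, the 3 highest and 3 lowest fold changes of ribosomal protein genes, the 5 genes most alike by each measure, up to 8 coding genes within 1 Mb of Rps4l, pseudogenes named after either gene, sex genes, Lgr5 and Olfm4, of which 1 gene is not reported here. The members and lists were chosen with earlier results of these data known.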

Additional observations from a re-analysis of the deposited data

Results flagged for a closer look

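Among the 4 aged mice, 1 mouse lay far from the others in 5 of 14 values examined by Dixon's test, which flags about 1 group in 20 by chance. Aged mouse 3 had the highest share of cells with a read of Rps4l, 7.94%, which was 2.84% after thinning to 100000 reads per cell. The same mouse had the smallest fall of Rps4x outside ISC-led cells (log2 ratio -0.48), the largest rise with the G2 and mitosis score (0.15) and the largest rise with the S phase score (0.61). Aged mouse 2 had more Rpl22l1, at 123 CPM, than the other aged mice.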

How the results depend on the processing

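The log2 fold change of Rps4l stayed between -5.20 and -4.47 and that of Rps4x between 0.04 and 0.38 under 16 alternatives each. Leaving out single mice gave -5.20 to -4.55 for Rps4l and 0.04 to 0.38 for Rps4x. The log2 ratio of Rps4l to Rps4x, aged minus young, ran from -5.62 to -4.76 without single mice. The difference in the share of cells with Rps4l (-59.1 percentage points) was -31.0 with at least 10 reads required and -53.7 after thinning, and -62.6 to -57.2 without single mice. That of Rps4x (0.381 points) was -1.01 with at least 10 reads, 5.19 over all cells (Rps4x was read in 83.3% of all cells of young mouse 1), -0.0656 without young mouse 1 and up to 0.606 without another mouse. Called ribosomal protein genes were 0 under all 15 alternatives. The count of paralogues past the threshold (0) includes Rps4l, which was chosen on this contrast, so a call of it is no evidence. The count was 1 with DESeq2, with no filter on low counts, after thinning and with a block for the code in the cell titles, and 0 to 1 without single mice (1 without aged mouse 1 or aged mouse 4), with Rps4l as the gene each time. The cause was not tested.

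With the mouse number as a replicate block the log2 fold changes were -4.58 for Rps4l and 0.18 for Rps4x, with 0 ribosomal protein genes and 0 paralogues called. The deviations of mice with the same number correlated at -0.17, 0.27 and -0.35, so the numbers do not pair the mice.

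The fall of Rps4x outside ISC-led cells ran from -0.93 to -0.82 without single mice, and its rise with the S phase score from 0.17 to 0.27, past the threshold in each case. With means over cells in place of summed counts these were -1.32 and 0.52, and the G2 and mitosis value was 0.21. The rise with the G2 and mitosis score (0.054 to 0.11) lost its call, with an adjusted p of 0.0625 in the exact permutation test, without any 1 of 6 mice, young mouse 1 being the exception. With 6 mice the smallest p is 0.0312. Without molecular identifiers, copies made by PCR are counted as reads, so intervals from counts are too narrow, and 7 mice limit the tests.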
